A study of Caenorhabditis elegans with 12 samples.

Results

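The genes described here are 10 genes that encode structural proteins of the muscle sarcomere in Caenorhabditis elegans: unc-54, myo-3, myo-1, myo-2, unc-15, act-4, lev-11, tnt-2, mup-2 and unc-27. They were taken by symbol and are 10 of the 21882 genes in the deposited RNA-Seq tables. In muscle, bipolar thick filaments of myosin pull on thin filaments of actin. Thin filaments also carry tropomyosin and troponin, which let calcium switch the contraction on and off. In the worm, body wall muscle and the pharynx use different myosin heavy chains, and paramyosin forms the core of the thick filament.

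RNA was taken from whole worms at the mid-L4 larval stage, grown on HT115 bacteria with the L4440 vector, in 4 samples of each of 3 groups. The groups were wild type (N2), the raga-1(ok386) mutant, which lacks a RagA GTPase that activates the growth-controlling complex TORC1, and a neuronal rescue, in which the same mutant carried the extrachromosomal array wbmEx238. In this array the rab-3 promoter drives a raga-1 cDNA that is joined through an SL2 trans-splice site to mCherry and ends in the unc-54 3'UTR. The comparisons ask which transcripts differ when raga-1 is lost and which differ when it is put back under the neuronal rab-3 promoter. Each sample pooled many worms from its own egg lay. An extrachromosomal array can be lost from cells, and the study's methods state that rescue worms were picked under a fluorescence microscope, whereas worms of the other groups were washed off plates. The study also describes expression of this array in the intestine, outside neurons. Picking and the array cannot be told apart. The 3'UTR of the array is that of unc-54, which makes unc-54 the member of most interest in the rescue.

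Libraries held 14287510 to 26701924 estimated counts for wild type, 20320091 to 35619305 for the mutant and 24724610 to 31410363 for the rescue. All 10 genes passed the filter on low counts, with 15728 genes tested in all. As a check of the labels, raga-1 had a mean of 66.3 ± 3.47 CPM (counts relative to library size, scaled by TMM; SD, n = 4) for wild type, 1.56 ± 0.145 for mutant and 857 ± 37.3 for rescue libraries. Wild type samples lay further from each other than samples of the other groups, with a median distance on log2 CPM over all genes of 80.1, against 45.4 and 44.6. Wild type replicates 1 and 3 also stood apart from replicates 2 and 4 in genes that peak around the molt, whose summed CPM was 1829, 216, 880.8 and 310.9 in replicates 1 to 4. It was 446 to 690.4 in the mutant and 823 to 1447 in the rescue. Results against wild type were therefore also computed without these pairs of replicates. The summed level of the molt genes did not overlap between mutant and rescue either, with a median log2 fold change of 1.13 for rescue against mutant. The part of molt timing in that comparison was not tested. In RNA from whole worms, a smaller share of muscle cells and less RNA per muscle cell cannot be told apart.

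The 10 sarcomere genes together took 1.71 ± 0.0539% of all wild type counts, 1.87 ± 0.0620% of mutant counts and 1.90 ± 0.0678% of rescue counts (SD, n = 4). Wild type samples ran from 1.67% to 1.79% and stayed below the mutant (1.83% to 1.96%) and the rescue (1.82% to 1.97%). On the TMM scale, which allows for the composition of each library, the summed levels overlapped, at 16782 to 18518 CPM for wild type, 18111 to 19798 CPM in the mutant and 16843 to 19597 CPM in the rescue.

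**Figure D1:**
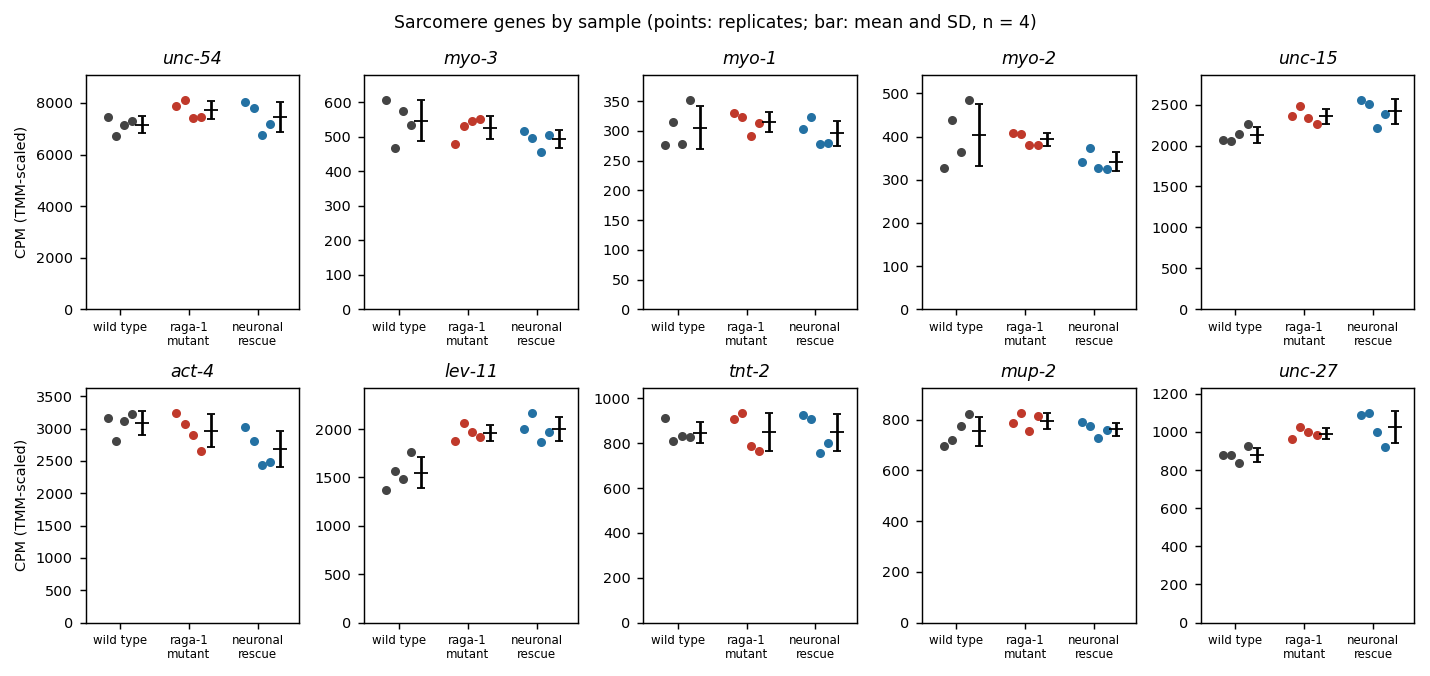
CPM (TMM-scaled) of each sarcomere gene in every sample, by group, with points for the 4 replicates and bars for the mean and SD. For lev-11, the 4 wild type samples (1374 to 1758 CPM) sit below all mutant and rescue samples (1870 to 2166 CPM), whereas tnt-2 has nearly the same mean in each group.

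Levels of different genes were compared per kilobase of exon, since a long transcript yields more reads. In wild type, act-4 had the highest length-scaled level, 1926 ± 117 CPM per kb (SD, n = 4). It was followed by unc-54 at 1154 ± 52.4 CPM per kb and unc-27 at 944 ± 39.4 CPM per kb, and the samples of these 3 genes did not overlap. The genes lev-11 (649 ± 67.8), unc-15 (623 ± 28.4), tnt-2 (559 ± 30.9) and mup-2 (514 ± 38.5 CPM per kb) formed a middle group in which each gene overlapped the next in the order. The other myosin heavy chain genes were lowest on this scale. myo-3 was at 89.4 ± 9.80 CPM per kb and did not overlap its neighbours, and myo-2 (63.7 ± 11.3) and myo-1 (47.3 ± 5.54 CPM per kb) overlapped each other. For lev-11 the length is the union of exons over 20 annotated transcripts, 2383 bases, which is longer than its longest transcript of 1536 bases, so its length-scaled level is a low estimate. Over the longest transcript lev-11 was at 1007 ± 105 CPM per kb in wild type, which would place it between unc-54 and unc-27 and overlapping both.

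**Figure D2:**
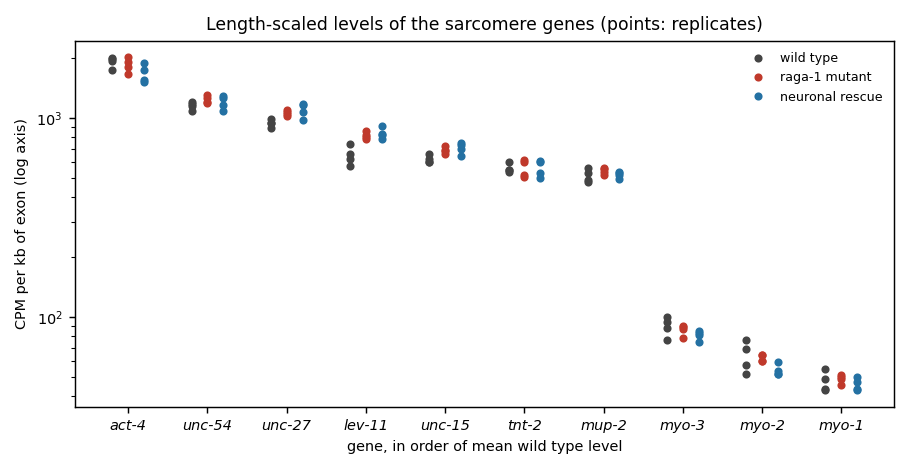
Length-scaled levels (CPM per kb of exon, log axis) of the 10 genes in order of their wild type mean, with a point for each replicate in each group. Myosin heavy chain genes other than unc-54 lie below 100 CPM per kb, and unc-54 lies between 1082 and 1310 CPM per kb in every sample.

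Thick filament genes. The gene unc-54 (chromosome I, 14855901 to 14863482, minus strand, in the Ensembl annotation of WBcel235) encodes myosin heavy chain B, the major myosin of body wall muscle. In replicates 1 to 4 its level was 7465, 6712, 7159 and 7313 CPM for wild type, 7883, 8128, 7411 and 7466 CPM in the mutant, and 8053, 7810, 6765 and 7193 CPM in the rescue. The 3 groups overlapped, and the rescue held both the lowest but one and the highest but one of the 12 values. The log2 fold change of unc-54 was 0.11 (SE 0.08) for the mutant against wild type, with an adjusted p of 0.316 in edgeR's quasi-likelihood test. Between rescue and mutant the log2 fold change was -0.05 (95% interval -0.22 to 0.12, adjusted p = 0.766 in the same edgeR test), and between rescue and wild type it was 0.06 (95% interval -0.11 to 0.23, adjusted p = 0.582).

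The gene myo-3 (chromosome V, 12226817 to 12234343) encodes myosin heavy chain A, which lies at the centre of the body wall thick filament. It was at 607.0, 468, 574 and 534 CPM for wild type, 477, 532, 544 and 551 CPM in the mutant, and 516, 496, 456 and 506 CPM in the rescue. The groups overlapped, with the 2 highest values in wild type replicates 1 and 3. Its log2 fold changes were -0.05, -0.09 and -0.15 for mutant against wild type, rescue against mutant and rescue against wild type, and none passed the threshold (edgeR adjusted p 0.660, 0.588 and 0.180).

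The pharyngeal myosin heavy chains are encoded by myo-1 (chromosome I, 7258946 to 7267057) and myo-2 (chromosome X, 12468061 to 12475348). In wild type, myo-2 was at 327, 438, 364 and 485 CPM, the widest spread of any member within a group (coefficient of variation 17.7%). In the mutant it was at 408, 406, 380.4 and 380.4 CPM and in the rescue at 339.9, 374, 328 and 325 CPM, so that every rescue sample lay below every mutant sample. Over all genes tested, 17.7% did not overlap between rescue and mutant, 10.6% with the rescue higher and 7.15% with it lower, and myo-2 was the only one of the 10 members. The log2 fold change of myo-2 was -0.20 (SE 0.11) for rescue against mutant and -0.24 (SE 0.11) for rescue against wild type, with edgeR adjusted p-values of 0.353 and 0.0936. Without wild type replicates 1 and 3, whose myo-2 levels were the lowest of the group, the latter was -0.44 with an edgeR adjusted p of 0.00105, which passes the threshold. This was the only 1 of 24 alternative settings in which it passed, and over them it ran from -0.44 to -0.013. On the 3 days that wild type and rescue shared, the log2 difference was 0.19, -0.42 and -0.16, higher in the rescue on 1. The range of myo-1 was 277 to 353 CPM for wild type, 292 to 331 CPM in the mutant and 278 to 323 CPM in the rescue, and its log2 fold changes lay between -0.09 and 0.04.

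Paramyosin is encoded by unc-15 (chromosome I, 7376604 to 7383197). Its level was 2063, 2058, 2141 and 2266 CPM for wild type, 2360, 2479, 2341 and 2257 CPM in the mutant, and 2560, 2507, 2219 and 2389 CPM in the rescue. One mutant and 1 rescue sample fell within the wild type range. The log2 fold change of unc-15 was 0.15 (SE 0.07) for mutant against wild type and 0.18 (SE 0.07) for rescue against wild type, short of the threshold of 0.01 in edgeR's test (adjusted p = 0.113 and 0.0436).

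Thin filament genes. The gene lev-11 (chromosome I, 14621169 to 14631094, minus strand) encodes tropomyosin, which winds along the actin filament. It was the only member past the threshold against wild type, and it was higher in both other groups. Its level was 1374, 1570, 1488 and 1758 CPM for wild type, 1878, 2067, 1972 and 1919 CPM in the mutant, and 1996, 2166, 1870 and 1969 CPM in the rescue. All 8 mutant and rescue samples lay above all 4 wild type samples, and mutant and rescue overlapped. In the mutant, lev-11 was 26.6% higher than in wild type (log2 fold change 0.34, SE 0.08, adjusted p = 0.00821, edgeR). In the rescue it was 29.2% higher than in wild type (log2 fold change 0.37, SE 0.08, edgeR adjusted p = 0.0037), and between rescue and mutant the log2 fold change was 0.03 (95% interval -0.14 to 0.20). The call in the mutant did not hold when wild type replicates 1 and 3 were left out (0.23, edgeR adjusted p = 0.0754), nor did the call in the rescue (0.26, adjusted p = 0.0348). With single libraries left out, the mutant call held in 2 of 12 fits, with adjusted p-values from 0.0036 to 0.029, and the rescue call in 10 of 12, with adjusted p-values from 0.00164 to 0.0130 in edgeR. Wild type and mutant samples were collected together on 3 days, and on each of these lev-11 was higher in the mutant, by 0.33 to 0.59 on the log2 scale. Over the same 3 days it was higher in the rescue than in wild type by 0.25 to 0.66. With collection day as a block the mutant call did not hold (0.42, edgeR adjusted p = 0.0126), and the rescue call held (0.45, adjusted p = 0.00694).

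Markers of other tissues moved in the same comparisons as lev-11. Over all genes tested, 6.36% rose and 9.01% fell in the mutant against wild type, and 10.2% rose and 13.5% fell in the rescue. Of 12 neuron markers, 3 rose in the mutant and 6 in the rescue against wild type, and their summed level was 498 to 546 CPM for wild type, 589.9 to 611 CPM in the mutant and 661 to 729 CPM in the rescue. Of 11 germ line markers, 3 fell in the mutant and 7 in the rescue, with sums of 3221 to 3939, 3198 to 3457 and 2679 to 3025 CPM. Of 11 intestine markers, 1 rose in the mutant and 0 in the rescue, and of 10 epidermis markers, 0 passed the threshold in the mutant and 1 fell in the rescue. Without wild type replicates 1 and 3, 3 and 6 neuron markers rose and 4 and 7 germ line markers fell in mutant and rescue, and 3 and 4 epidermis markers rose. Of the intestine markers, 3 rose in the mutant, and 2 rose and 1 fell in the rescue. Over all genes, 7.34% rose and 7.53% fell in the mutant and 15.1% rose and 14.1% fell in the rescue with these replicates left out. Without replicates 2 and 4, 3 and 4 neuron markers rose and 3 and 5 germ line markers fell in mutant and rescue. The epidermis markers then went the other way, with 5 and 4 falling and 1 rising in each, and 1 intestine marker rose in each. Over all genes, 13% rose and 13.9% fell in the mutant and 13.1% rose and 13.6% fell in the rescue in that setting. Some epidermis markers ranged widely within wild type, bli-1 from 13.7 to 595 CPM and dpy-7 from 0.178 to 70.8 CPM. Others, such as lin-26 at 54.4 to 68.1 CPM, did not. The epidermis marker nhr-23 is also among the molt genes. The part of molt timing in the epidermis counts was not tested, nor was the part of these marker differences in the level of lev-11.

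**Figure D3:**
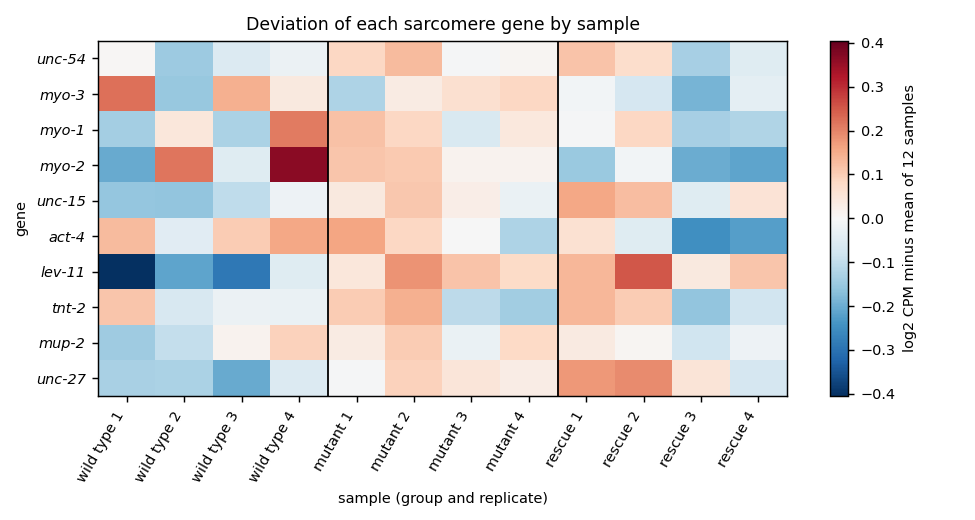
Deviation of each gene's log2 CPM from its mean over the 12 samples, in each sample (red above, blue below), with vertical lines between wild type, mutant and rescue. The row of lev-11 is below its mean in all 4 wild type samples, and myo-2 and myo-3 differ in opposite directions between wild type replicates 1 and 2.

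A muscle actin is encoded by act-4 (chromosome X, 4960621 to 4964413). It was at 3171, 2812, 3117 and 3233 CPM for wild type, 3242, 3077, 2899 and 2660 CPM in the mutant, and 3026, 2806, 2443 and 2484 CPM in the rescue, with overlap between all groups. On each of the 4 days that mutant and rescue shared it was lower in the rescue, by 0.10 to 0.25 on the log2 scale, and on each of the 3 days that wild type and rescue shared by 0.18 to 0.33. Its log2 fold change was -0.14 (SE 0.09) for rescue against mutant and -0.20 (SE 0.09) for rescue against wild type, neither past the threshold (edgeR adjusted p = 0.441 and 0.103). The worm's actin genes are nearly identical in sequence, so the division of reads between act-4 and its paralogs is uncertain.

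Forms of troponin T, the subunit that ties troponin to tropomyosin, are encoded by tnt-2 (chromosome X, 8721546 to 8723550) and mup-2 (chromosome X, 6408471 to 6410227). The mean of tnt-2 was 846 ± 46.7, 849 ± 84.6 and 848 ± 81.96 CPM for wild type, mutant and rescue (SD, n = 4). Its 3 log2 fold changes were within 0.01 of 0, with 95% intervals from -0.19 to 0.20. The mean of mup-2 was 753 ± 56.4, 795 ± 31.6 and 762 ± 26.2 CPM, with log2 fold changes of 0.08, -0.06 and 0.02, none past the threshold.

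A form of troponin I, the inhibitory subunit, is encoded by unc-27 (chromosome X, 8789456 to 8790621). Wild type samples held 879.9, 881, 836 and 926 CPM. It was at 960.3, 1027, 997 and 982 CPM in the mutant and at 1087, 1099, 999 and 919 CPM in the rescue. All mutant samples lay above all wild type samples, and rescue replicate 4 lay within the wild type range. The log2 fold change of unc-27 was 0.17 (SE 0.07, edgeR adjusted p = 0.0689) in the mutant and 0.22 (SE 0.07, edgeR adjusted p = 0.0194) in the rescue against wild type. Neither value passed the threshold of 0.01. With DESeq2 the rescue value was 0.21 with an adjusted p of 0.00847, which does.

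**Figure D4:**
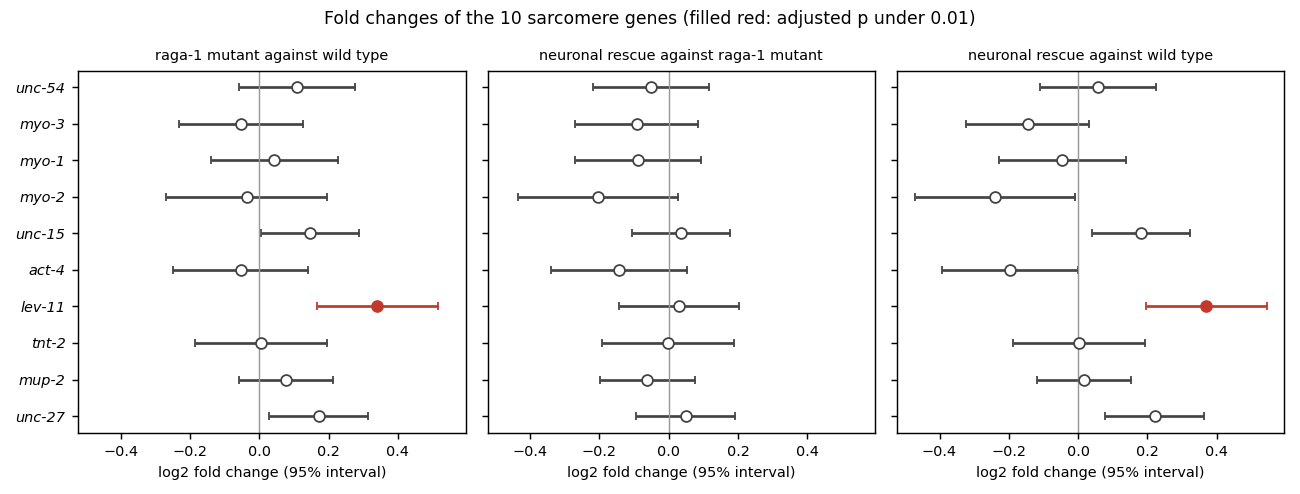
Log2 fold changes of the 10 genes with 95% intervals in the 3 comparisons, from edgeR, with filled red points where the adjusted p was under 0.01. Only lev-11 is filled, at 0.34 and 0.37 against wild type, and every interval for rescue against mutant includes 0.

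Counts over the members. For the mutant against wild type, 1 of the 10 genes (lev-11) passed the threshold, where 15.4% of all genes tested passed, 6.36% in the higher direction and 9.01% in the lower. For rescue against wild type it was again 1 of 10 (lev-11), where 23.7% of all genes passed, 10.2% in the higher direction and 13.5% in the lower. In the 3-group test it was again lev-11 alone (edgeR adjusted p = 0.00614), where 21.1% of all genes passed. For rescue against mutant, 0 of 10 passed in edgeR's test, where 0.381% of all genes passed, 0.305% higher and 0.0763% lower. The lowest unadjusted p of a member in that edgeR test was 0.0794 (myo-2), at rank 3538 of the 15728 genes. DESeq2 and limma also gave 0 of 10, where 1.99% and 0.292% of all genes passed. These shares are near or below the background, so that the members as a list did not stand apart in how often they were called. Groups did not overlap for 2 of 10 genes (lev-11 and unc-27) in the mutant against wild type, where 29% of all genes did not overlap (13.1% higher, 15.9% lower), and for 1 of 10 (lev-11) in the rescue against wild type, where it was 34.4% (16.1% higher, 18.3% lower). The median log2 fold change of the members was 0.06, -0.06 and 0.01 in the 3 comparisons, beside 0.00, 0.00 and 0.04 over all genes tested. The members are abundant, and over the 548 genes at or above the level of the lowest member the medians were -0.09, -0.06 and -0.16. Of these 548 genes, 20.3%, 0.547% and 29.4% passed the threshold. Both comparisons against wild type share its samples.

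The rescue and the 3'UTR of unc-54. To see whether unc-54 moved apart from the other members in the rescue, its counts were divided by those of myo-3, the other myosin of the same muscle, within each sample. The log2 ratio of unc-54 to myo-3 was 3.62, 3.84, 3.64 and 3.78 for wild type, 4.05, 3.93, 3.77 and 3.76 in the mutant, and 3.97, 3.98, 3.89 and 3.83 in the rescue. Mutant and rescue overlapped, with a difference in mean log2 ratio of 0.04 (exact two-sided permutation test, p = 0.629, adjusted over the 3 comparisons p = 0.629). Rescue and wild type differed by 0.20 in mean log2 ratio (exact p = 0.0571, adjusted p = 0.171) and mutant and wild type by 0.16 (exact p = 0.171, adjusted p = 0.257), where the smallest p that 4 samples against 4 allow is 0.0286. The ratio to myo-3 was thus no higher in the rescue than in the mutant beyond the spread between replicates.

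Against unc-15 in place of myo-3, the log2 ratio of unc-54 ran from 1.66 to 1.74 in the mutant and from 1.59 to 1.65 in the rescue. These groups did not overlap, with the rescue lower by 0.09 (mean difference -0.09, exact permutation p = 0.0286, unadjusted). Wild type ran from 1.69 to 1.86, also above every rescue sample. Against the mean of the other 9 members on the log2 scale, unc-54 was at 3.00 ± 0.0861 for wild type, 3.03 ± 0.0202 in the mutant and 3.03 ± 0.0356 in the rescue (SD, n = 4), with overlap between all groups. Between rescue and mutant this measure differed by 0.0007 for unc-54. Set against its own other 9 members, unc-15 was higher in the rescue by 0.098 and myo-2 lower by 0.17, both without overlap. The separation in the ratio to unc-15 therefore does not show a move of unc-54 by itself. No comparison placed unc-54 above the other members in the rescue alone.

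**Figure D5:**
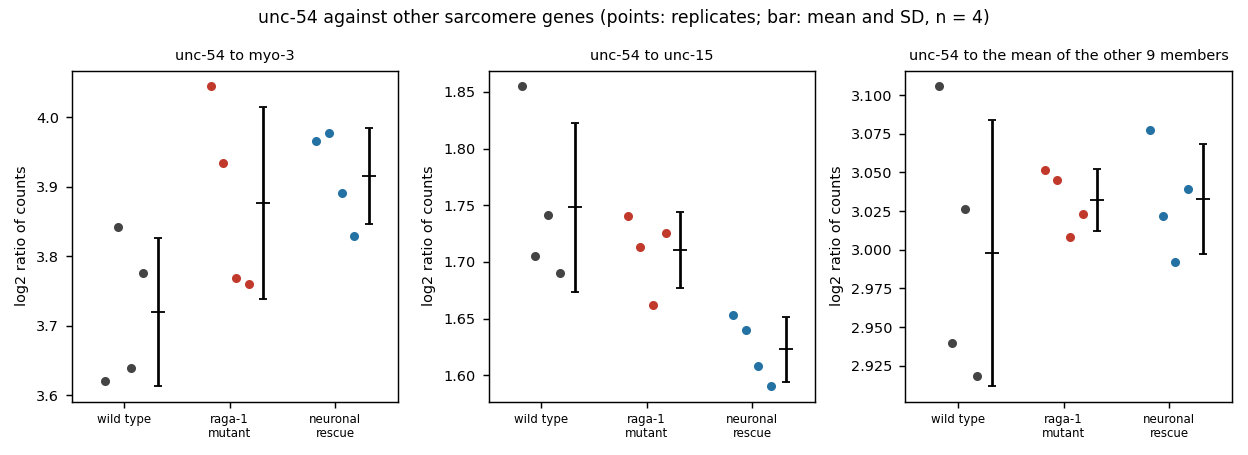
Log2 ratio of unc-54 counts to those of myo-3, of unc-15 and of the mean of the other 9 members in every sample, with bars for the mean and SD. The axes do not start at 0 and differ between panels. For the ratio to unc-15 the 4 rescue samples (1.59 to 1.65) lie below the 4 mutant samples (1.66 to 1.74) and the 4 wild type samples (1.69 to 1.86). For the other ratios the groups overlap.

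The size of a signal from the array can be set beside the replicate error. In rescue samples raga-1 was at 804.96 to 891 CPM. The array lacks raga-1's own 3'UTR (322 bases), so these counts fall on 944 bases of annotated exon, and the annotated 3'UTR of unc-54 is 280 bases long. At the coverage of raga-1, a 3'UTR of that length would take 239 to 264 CPM. This is 3.06% to 3.83% of the level of unc-54 in the same samples, or a shift of 0.045 to 0.056 on the log2 scale. Beside it, the SD of the log2 ratio of unc-54 in mutant and rescue was 0.029 to 0.034 against unc-15, 0.020 to 0.036 against the other 9 members and 0.069 to 0.14 against myo-3. A shift of 0.045 to 0.056 is smaller than the SD against myo-3, so the test on that ratio could not decide on it. This arithmetic assumes even coverage along the transcript and that all such reads were counted for unc-54. It also assumes that the mCherry part behind the SL2 trans-splice site, which carries the 3'UTR, was as abundant as the raga-1 part. None of these was measured. Among the genes whose sequence the array carries or borders, raga-1 changed, rab-3, whose promoter drives the array, had a log2 fold change of 0.28 (edgeR adjusted p = 0.178) for rescue against mutant, and gpd-2 and gpd-3 did not pass the threshold.

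How the members varied together. Over the 45 pairs of members, the median Pearson r of log2 CPM was 0.33 over the 12 samples, and 35 pairs were above 0. With the group means removed it was 0.47, and 42 pairs were above 0. These values describe samples that also share library depth and scaling. The genes outside the list whose pattern was most like the mean of the 10 standardised members over the 12 samples were C18B2.5 (r = 0.89), vha-16 (r = 0.88), a subunit of the vacuolar proton pump, T21B6.3 (r = 0.86), eef-1B.1 (r = 0.85), a translation elongation factor, and C18B2.3 (r = 0.84). No further muscle structural gene was among these 5.

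Other muscle genes. Among 13 other filament subunits (actins, light chains, troponins), 1 fell in the mutant and in the rescue against wild type and 0 changed between rescue and mutant. This was act-2, an actin gene, at 1611 ± 128 CPM for wild type, 1066 ± 85.6 CPM in the mutant and 927 ± 70.3 CPM in the rescue (SD, n = 4). Its log2 fold change was -0.60 in the mutant (edgeR adjusted p = 0.00041) and -0.80 in the rescue (adjusted p = 3.57e-05), in the opposite direction to lev-11. The caution on near-identical actins holds here too, and the summed level of these 13 genes overlapped between groups, at 12463 to 13386 CPM for wild type, 11786 to 13798 CPM for the mutant and 11089 to 13040 CPM for the rescue. The median log2 fold change of the list was 0.13, -0.03 and 0.05 in the 3 comparisons.

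Of 25 genes for M-lines, dense bodies (the anchors of thick and thin filaments) and giant proteins, 1 rose in the mutant, lim-8, which encodes a LIM domain protein (log2 fold change 0.33, edgeR adjusted p = 0.0052). None passed in the other comparisons. Of 11 genes for filament assembly and turnover, unc-45, a chaperone that folds myosin heads, fell in the mutant, from 147 ± 14.5 to 105 ± 6.33 CPM (SD, n = 4; log2 fold change -0.48, edgeR adjusted p = 0.00401). In the rescue against wild type it was at -0.37 with an edgeR adjusted p of 0.0108, just short of the threshold. The subunits of the actin capping protein, cap-1 and cap-2, rose in the rescue against wild type by 0.20 and 0.18 on the log2 scale (edgeR adjusted p = 0.00265 and 0.00651). Of 15 genes for excitation and calcium handling, 0 passed the threshold in any comparison, with jph-1, unc-36, itr-1 and lev-1 the nearest in the 3-group test (edgeR adjusted p 0.0298 to 0.103).

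Of 7 muscle transcription factor genes tested, 2 rose in the mutant. The pharyngeal regulator pha-4 went from 12.04 ± 0.442 CPM in wild type to 19.97 ± 1.35 CPM in the mutant and 18.3 ± 1.34 CPM in the rescue (SD, n = 4; log2 fold change 0.73 and 0.61, edgeR adjusted p = 5.26e-05 and 9.96e-05 against wild type). The pharyngeal muscle factor ceh-22 was low in all groups, at 0.989 ± 0.312, 1.72 ± 0.257 and 1.52 ± 0.0785 CPM, and passed the threshold in the mutant (0.83, edgeR adjusted p = 0.00988). The pharyngeal myosin genes myo-1 and myo-2 did not pass in the same comparison, at 0.04 and -0.04. Of 5 non-muscle actin and myosin genes, 1 rose in the mutant, the regulatory light chain mlc-4 (log2 fold change 0.26, edgeR adjusted p = 0.00476), and 0 passed in the other comparisons.

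The calls of act-2 and pha-4 held without wild type replicates 1 and 3 and without replicates 2 and 4. Over these alternatives act-2 was at -0.70 and -0.49 in the mutant and at -0.90 and -0.69 in the rescue, with edgeR adjusted p-values of 0.00209 or less. The call of unc-45 in the mutant also held, at -0.49 and -0.47 (edgeR adjusted p = 0.00591 and 0.00659). Without replicates 1 and 3, the calls of lim-8 (0.23, edgeR adjusted p = 0.0263), mlc-4 (0.18, 0.0441) and ceh-22 (0.94, 0.0118) in the mutant were lost, as were those of cap-1 (0.17, 0.0212) and cap-2 (0.14, 0.0596) in the rescue. The call of ceh-22 was also lost without replicates 2 and 4 (0.72, edgeR adjusted p = 0.0332). With replicates 1 and 3 left out, 4 of the 15 excitation and calcium genes rose in the rescue against wild type (egl-19, jph-1, lev-1 and unc-49), where 15.1% of all genes rose. In the same fit 3 of the 25 M-line, dense body and giant protein genes rose (unc-112, unc-95 and tln-1). With replicates 2 and 4 left out instead, 0 of the 15 and 2 of the 25 (lim-8 and scpl-1) rose in the rescue. There 2 of the 13 other filament subunits (tnt-4 and tni-4) and 3 of the 11 assembly genes (unc-94, cap-1 and cap-2) rose, where 13.1% of all genes rose.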

How the data were processed

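RNA-Seq of 12 worm samples in 3 groups of 4 was analysed, grouped by the sample labels. The authors ran bcbio-nextgen, aligned reads with STAR to Ensembl 94 and assessed these alignments, quantified transcripts with Salmon and summed them per gene by means of tximport. They deposited expected counts per gene, which were rounded here, and a normalized signal, which equals the rounded counts over 1 DESeq2 size factor per sample (checked, 100% of values above 0 within 0.1%). Versions of these tools are not given in the sources used here. All columns had a sample (0 without).

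Counts were filtered with filterByExpr at default settings, scaled by TMM (factors 0.951 to 1.08) and fitted for all groups together with the quasi-likelihood test of edgeR 4.0.16 in R 4.3.3, with Benjamini-Hochberg adjustment over 15728 genes and a threshold of 0.01. DESeq2 1.42.0 and limma 3.58.1 (log2 of the normalized signal plus 1) were alternatives. A floor of 3 counts is 0.210 CPM in the smallest library, and p-values measure the spread between these samples. Ratios were tested by exact two-sided permutation. In simulated data for the mutant against wild type (15609 genes), the test recovered 67 of 100 genes raised 2-fold and 59 of 100 lowered to 0.5-fold, with 1 false call. The changed genes were drawn from all levels of expression and changed by more than any member did. These rates therefore do not give the power for the members. Simulated counts were drawn independently, with the same dispersion of a gene in all groups and no difference by collection day or molt. The number of false calls therefore does not give the error rate in the real samples. Coordinates and lengths come from Ensembl release 115 for WBcel235. In it no member shared more than 1 exonic base with another gene.

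Named genes are all members, up to 4 genes of each other list with the smallest 3-group adjusted p (all array elements), and the 5 genes most like the members' mean. Genes named outside this rule were chosen after their values were seen. Members and lists were chosen with earlier results of these data known. Mutant and rescue samples of the same number were collected on the same day per the labels, so numbers pair these groups. The correlation of their deviations was -0.02, 0.15, -0.14 and 0.01. Wild type samples share no day with samples of the same number in the other groups.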

Additional observations from a re-analysis of the deposited data

How the results depend on the processing

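All alternatives kept 0 members past the threshold for rescue against mutant, a fit of these groups alone paired by collection day included. That fit, and the counts of other muscle and marker genes without pairs of wild type replicates, were chosen after seeing the data. For mutant against wild type the count of members went from 1 to 0 with no filter beyond 1 count, with only the compared groups fitted, with the replicate number as a block, with collection day as a block and without wild type replicates 1 and 3, and ran from 0 to 1 with single libraries left out. With the replicate block, whose numbers share no day with wild type, lev-11 was at 0.34 (edgeR adjusted p = 0.0114). For rescue against wild type the count was 3 at a threshold of 0.05, 3 by library size alone (where the median of all genes was 0.14, against 0.04), 2 with DESeq2 and 0 with only those groups fitted (lev-11 adjusted p = 0.0151, edgeR), and ran from 0 to 2 with single libraries left out. The cause was not tested.

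The difference in log2 ratio of unc-54 to myo-3 turned negative with unc-15 in place of myo-3 (-0.038, -0.088 and -0.13 for mutant against wild type, rescue against mutant and rescue against wild type). With single samples left out it ran from -0.00049 to 0.095 for rescue against mutant and from 0.16 to 0.24 for rescue against wild type. Paired by number, which marks a shared day only for mutant and rescue, the exact sign permutation p for rescue against mutant was 0.5, where 0.125 is the smallest possible.

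Of the members' log2 fold changes, 45 values for 7 genes changed sign, all with both values short of the threshold and a size of 0.061 or less in the reported fit. By library size alone, rescue against mutant gave 0.012 for unc-54, 0.062 for tnt-2 and 0.0022 for mup-2, and rescue against wild type 0.049 for myo-1. For tnt-2, rescue against mutant was 0.0062 by upper quartile and 0.0087 with 10 counts in every sample, and rescue against wild type was -0.0095 with DESeq2, -0.0068 with its size factors in edgeR and -0.013 with limma. With the replicate block tnt-2 was -8.1e-05 and -0.0014 against wild type in mutant and rescue. With collection day as a block it was -0.047 and -0.048, myo-2 was 0.059 in the mutant and myo-1 0.010 in the rescue. Without wild type replicates 2 and 4, tnt-2 was -0.035 and -0.038 in mutant and rescue, myo-2 0.19 in the mutant and myo-1 0.096 in the rescue. Without replicates 1 and 3, myo-1 was -0.089 and myo-3 0.061 in the mutant and mup-2 -0.024 in the rescue. With single libraries left out, mutant against wild type ran from -0.0018 to 0.12 for myo-1, -0.13 to 0.064 for myo-2, -0.12 to 0.00017 for myo-3 and -0.045 to 0.050 for tnt-2. Rescue against mutant ran from -0.010 to 0.060 for lev-11 and -0.047 to 0.048 for tnt-2, and rescue against wild type from -0.090 to 0.030 for myo-1, -0.042 to 0.058 for tnt-2 and -0.021 to 0.059 for mup-2.

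With 4 samples a group, the 95% intervals of the members' log2 fold changes were of the order of 0.2 to either side. The rescue was picked by hand, no wild type sample shared the first collection day, and wild type replicate 4 was alone on day 8. These differences cannot be told apart from genotype in full. No group of 4 was set apart by 1 sample among 33 tested.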
